A study of Mus musculus with 6 samples.

Results

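The genes described here serve the amino acid response and the unfolded protein response, which together adjust a cell's amino acid supply and the folding capacity of its endoplasmic reticulum (ER). The members are 34 genes given by symbol, and each is represented by its brightest probe set over the 6 arrays. All 34 were found among the 21759 distinct symbols of the arrays, 21 in the amino acid response and 13 in the unfolded protein response. Every cell in the study belonged to a mouse pre-pro-B cell line that lacks Ebf1 (Ebf1-/-), kept on OP9 stromal cells with 10 ng per ml each of stem cell factor, interleukin 7 and the FLT3 ligand. Control cells received the empty retroviral vector MigR1, EBF1 cells received MigY-EBF1 and Pax5 cells received MigR-Pax5. Cells were sorted and RNA was taken 24 hours after transduction, with 2 arrays in each of the 3 groups. All groups thus share the Ebf1-/- genotype, and EBF1 in EBF1 cells comes from a vector. The labels do not say whether arrays of a group stem from independent cultures. The p-values therefore reflect only how far these arrays lie from each other, a spread that may be technical.

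When amino acids run short or unfolded proteins load the ER, kinases that phosphorylate the initiation factor eIF2alpha slow general translation and raise that of ATF4, a bZIP transcription factor. ATF4 pairs with C/EBP proteins and activates genes for amino acid synthesis, amino acid transport and the charging of transfer RNAs. The ER sensors IRE1 and ATF6 act beside this branch: IRE1 splices Xbp1 RNA, and spliced XBP1 and cleaved ATF6 raise ER chaperones and folding enzymes. These programs are best known in the B lineage for the secretory expansion of plasma cells, and proliferating lymphocytes draw on the amino acid branch.

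The sequence motifs that these factors are known to bind were read in RefSeq promoters (build GRCm38.p6, 250 bases before to 50 after an annotated start), which were used for 29 of the 34 members. Those of Slc7a5, Wars, Hyou1, Manf and Aars were not used here. An ER stress response element (ERSE), written CCAAT, then any 9 bases, then CCACG, on either strand, was found in 6 members, all in the unfolded protein response: Hspa5, Hsp90b1, Calr, Canx, Pdia6 and Creld2. That is 6 of the 11 members of this response with a promoter and 0 of the 18 in the amino acid response, against 0.119% of all 32851 promoter windows (39 of them). Herpud1 holds the related ERSE-II (ATTGG, any base, CCACG), present in 0.0365% of all windows. Members and motifs were both picked as known for these responses. The shares here and below therefore describe the list and do not test it. These matches are printed on the strand of the motif with 10 bases on each side, the fixed letters of the motif in capitals, to show what the ER genes of the list share and where they differ.
Hspa5, ERSE (chr2:34772015-34772053, plus strand): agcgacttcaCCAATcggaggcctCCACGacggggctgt
Hsp90b1, ERSE (chr10:86705628-86705666, minus strand): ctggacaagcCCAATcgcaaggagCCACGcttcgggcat
Hsp90b1, ERSE (chr10:86705523-86705561, plus strand): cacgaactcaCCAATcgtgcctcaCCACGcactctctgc
Pdia6, ERSE (chr12:17266481-17266519, plus strand): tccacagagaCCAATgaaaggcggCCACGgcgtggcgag
Creld2, ERSE (chr15:88819510-88819548, minus strand): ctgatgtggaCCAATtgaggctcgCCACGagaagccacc
Calr, ERSE (chr8:84847065-84847103, plus strand): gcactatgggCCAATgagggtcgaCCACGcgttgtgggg
Canx, ERSE (chr11:50325790-50325828, minus strand): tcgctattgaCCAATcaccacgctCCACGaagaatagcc
Herpud1, ERSE-II (chr8:94386367-94386397, plus strand): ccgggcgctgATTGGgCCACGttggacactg

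The C/EBP-ATF composite element (CARE), searched as TGATGNAA on either strand, was found in 7 of the 18 amino acid response members with a promoter and in Herpud1, against 3.97% of all windows (1304 of 32851). The matches lie in Atf3, Trib3, Chac1, Asns, Slc7a11, Gars and, at its downstream start only, Vldlr. Slc7a11 holds 2 matches. They are shown in the same way for all of these genes except Atf3 and Vldlr, Herpud1 included.
Asns, CARE (chr6:7693215-7693242, minus strand): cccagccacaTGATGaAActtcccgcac
Trib3, CARE (chr2:152344029-152344056, plus strand): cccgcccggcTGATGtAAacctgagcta
Slc7a11, CARE (chr3:50443662-50443689, minus strand): ctcatgtggcTGATGcAAacctggagaa
Slc7a11, CARE (chr3:50443643-50443670, plus strand): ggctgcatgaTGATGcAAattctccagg
Gars, CARE (chr6:55037961-55037988, minus strand): gcccggtgcaTGATGaAAtagcgcagcc
Chac1, CARE (chr2:119351039-119351066, minus strand): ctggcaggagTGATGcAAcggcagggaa
Herpud1, CARE (chr8:94386307-94386334, minus strand): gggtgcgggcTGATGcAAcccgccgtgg

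The whole promoter windows of Asns and Hspa5, one from each response, follow on the strand of the gene, with the same letters in capitals. Asns carries a single CARE beginning 23 bases before its annotated start, and Hspa5 an ERSE beginning 65 bases before it.
Asns (chr6:7693160-7693459, minus strand): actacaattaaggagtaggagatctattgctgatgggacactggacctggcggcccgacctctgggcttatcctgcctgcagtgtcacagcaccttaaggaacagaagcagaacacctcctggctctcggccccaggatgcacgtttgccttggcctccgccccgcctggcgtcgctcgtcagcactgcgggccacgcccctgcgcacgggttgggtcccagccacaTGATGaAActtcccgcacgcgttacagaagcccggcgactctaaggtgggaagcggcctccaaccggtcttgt
Hspa5 (chr2:34771840-34772139, plus strand): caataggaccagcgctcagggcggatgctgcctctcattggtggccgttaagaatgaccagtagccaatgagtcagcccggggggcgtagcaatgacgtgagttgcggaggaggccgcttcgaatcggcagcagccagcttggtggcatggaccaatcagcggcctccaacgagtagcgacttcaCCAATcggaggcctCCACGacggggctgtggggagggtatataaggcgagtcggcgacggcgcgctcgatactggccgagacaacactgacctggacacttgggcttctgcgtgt

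**Figure D1:**
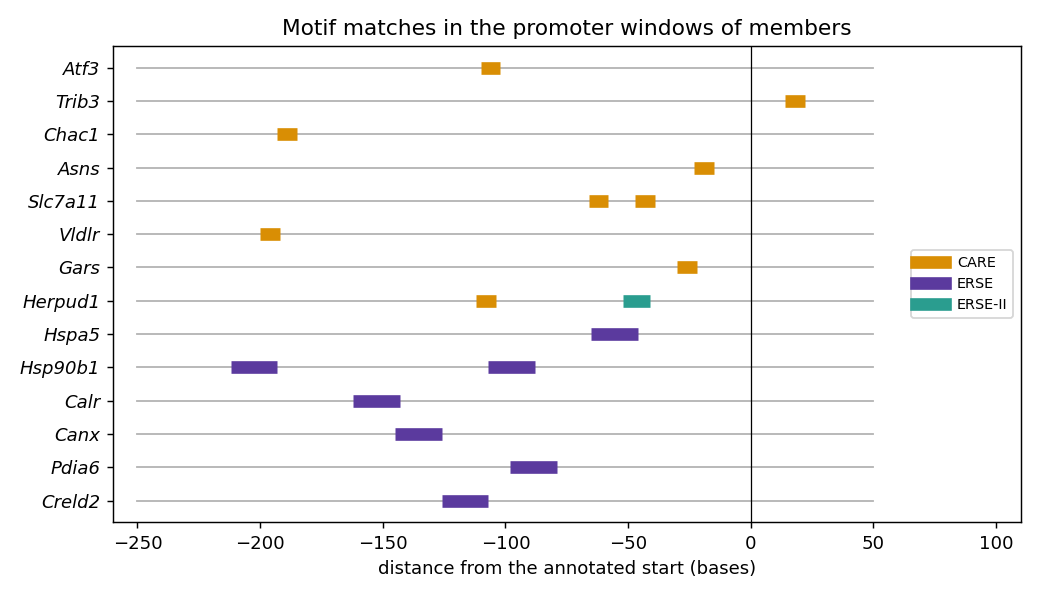
Motif matches by distance from the annotated start in the promoter windows of the 14 members that hold one; the grey lines are the 300-base windows (for Vldlr, the second of its 2 windows), and the coloured bars the matches. ERSE matches lie in the ER chaperone and folding genes, and CARE matches in the amino acid response genes and Herpud1.

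The palindromic CRE (TGACGTCA) was found in none of the 29 members' windows and in 1.79% of all windows, and the UPRE core (TGACGTGG) in none of them and in 0.676% of all. A match is a string of letters, and its absence says only that these letters are not in this window.

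On the arrays, values are log2 RMA values, in which the median over all probe sets was 4.06 to 4.17. Of the 34 members, 33 lay above the 30th percentile of an array on at least 2 arrays and entered the test, which was run on 16252 genes. A difference is always one of group means on the log2 scale with its SE, from limma over all 6 arrays (n = 2 per group), and an adjusted p under 0.05 counts as a call. Vldlr, a lipoprotein receptor gene that ATF4 is known to activate, was the member left out, at 2.85 and 2.88 in Control, 2.81 and 2.68 in EBF1 and 2.77 and 2.88 in Pax5 cells. The arrays of Pax5 cells stood further apart from each other than those of the other groups: the SD over tested genes of array 1 minus array 2 was 0.262 for Pax5, 0.152 for Control and 0.16 for EBF1. The lymphoid progenitor markers, Ptprc, Il7r, Flt3, Kit and Dntt among them, all lay above the 30th percentile on every array. Against Control, 5 of the 10 were called lower and 0 higher with EBF1, and 4 lower and 0 higher with Pax5. The shares called lower over all genes tested were 2.53% and 2.15%. Dntt differed by -1.75 with EBF1 and -1.27 with Pax5. The Pax5 probe set read 4.93 and 5.10 in Control, 6.01 and 6.17 in EBF1 and 11.42 and 11.33 in Pax5 cells. The brighter Ebf1 probe set read 8.87 and 8.87 in Control, 9.88 and 9.96 in EBF1 and 8.92 and 8.87 in Pax5 cells, and the dimmer one 4.70 and 4.75, 4.37 and 4.25, and 6.02 and 6.04 in the same order, so that only the brighter was highest in EBF1 cells. Of 18 OP9 stromal markers, 16 entered the test, while Lum and Postn lay below the 30th percentile on at least 5 of the 6 arrays. Bgn read 7.67 and 7.66 in Control, 8.39 and 8.19 in EBF1 and 7.94 and 7.92 in Pax5 cells. It was the 1 of 16 called higher with EBF1 (0.62, SE 0.09, adjusted p = 0.017), with 0 lower. The shares over all genes tested were 3.1% and 2.53%. With Pax5 0 were called, and in the direct comparison 1 was higher (Fn1) and 0 lower. The summed linear signal of all 18 was 943 to 963 in Control, 1199 to 1220 in EBF1 and 1017 to 1174 in Pax5 cells, a difference whose part in the results was not tested. In bulk RNA of this kind, fewer cells of a type and less RNA per cell cannot be told apart. The summed signal of the 10 lymphoid progenitor markers was 5665 to 5671 in Control, 4467 to 4522 in EBF1 and 4681 to 4708 in Pax5 cells, that of the myeloid markers 805 to 808, 530 to 585 and 617 to 705, and their part was not tested either.

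**Figure D2:**
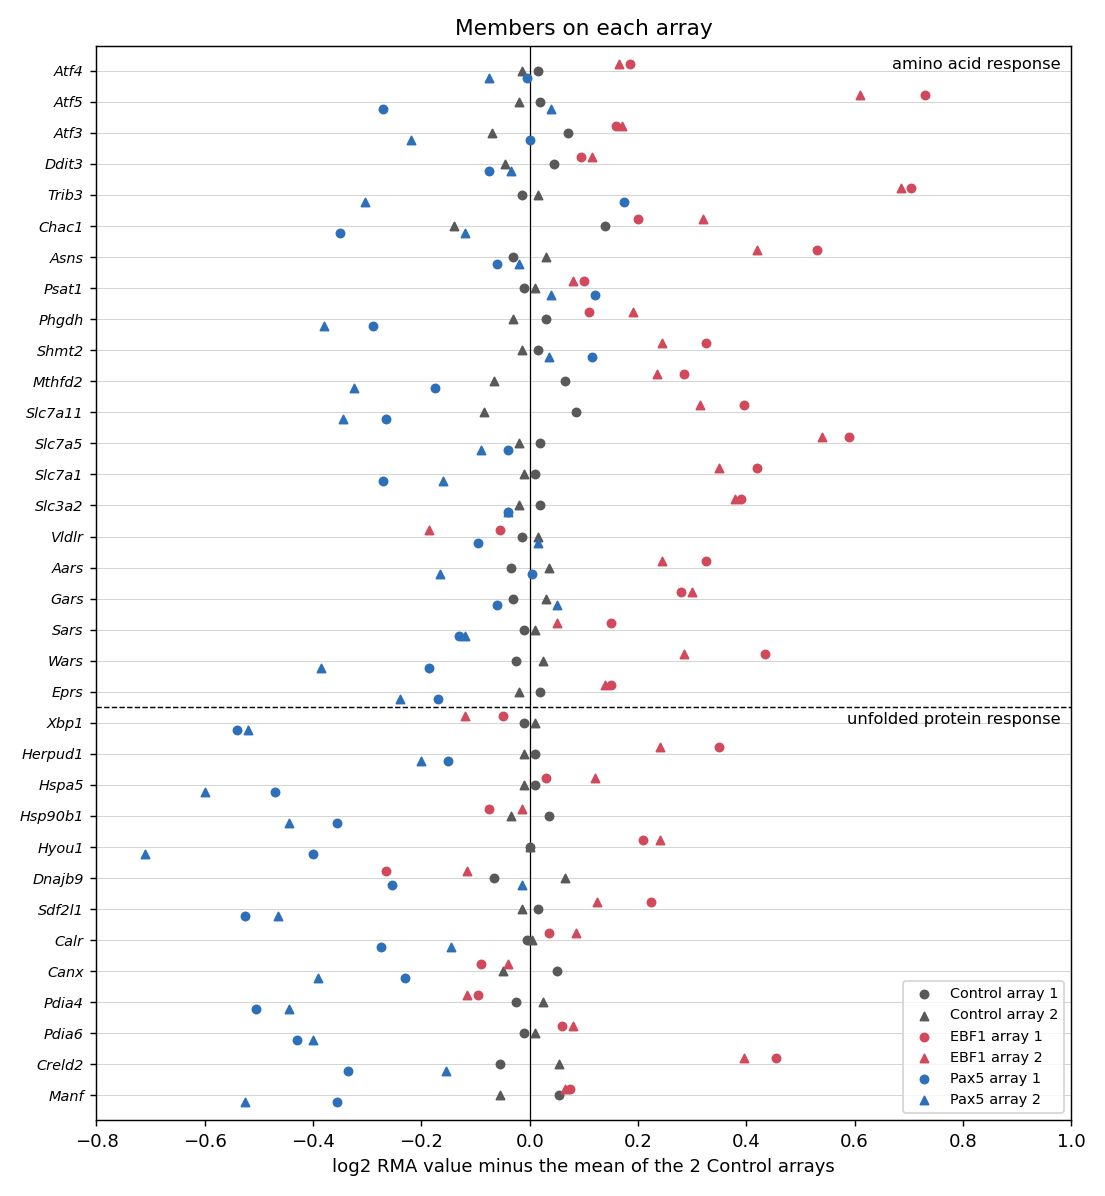
Value of every member on each of the 6 arrays, as log2 RMA value minus the mean of the 2 Control arrays; circles are array 1 and triangles array 2 of a group, and the dashed line divides the responses. EBF1 arrays lie to the right for most amino acid response members, and Pax5 arrays to the left for most unfolded protein response members.

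The EBF1 vector was first set against the empty vector, 24 hours after transduction. An empty MigY group was not analysed here, so that EBF1 and the change from MigR1 to the MigY vector cannot be told apart, here or in the comparison with MigR-Pax5. Genes for amino acid transport, asparagine synthesis and the factor ATF5 rose: 5 of the 33 tested members were called higher and 0 lower, all of them in the amino acid response. Over all genes tested, 5.62% were called, 3.1% higher and 2.53% lower. Both EBF1 arrays lay above both Control arrays for 28 members and below for 3, against 30.2% and 26% of all genes tested. At an unadjusted p under 0.05, 14 members were higher and 0 lower. Of the 16252 genes tested, 1799 were higher and 1450 lower at this threshold. Later list counts at this threshold with EBF1 are to be set beside these. The median difference was 0.28 over the 20 tested amino acid response members, 0.07 over the 13 of the unfolded protein response and 0.01 over all genes tested.

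Asns, which makes asparagine from aspartate and glutamine, lay at 8.70 and 8.76 in Control, 9.26 and 9.15 in EBF1 and 8.67 and 8.71 in Pax5 cells. Both EBF1 arrays lay above the other 4, and the rise was 0.47 (SE 0.08, adjusted p = 0.027). Slc7a5 encodes LAT1, the light chain of the main exchanger for large neutral amino acids such as leucine. It read 9.22 and 9.18 in Control, 9.79 and 9.74 in EBF1 and 9.16 and 9.11 in Pax5 cells. The groups did not overlap, the Pax5 arrays lay just under Control, and Slc7a5 rose by 0.56 (SE 0.07, adjusted p = 0.012).

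Slc3a2, the gene for the heavy chain (CD98) with which LAT1 and xCT pair, read 8.76 and 8.72 in Control, 9.13 and 9.12 in EBF1 and 8.70 and 8.70 in Pax5 cells. Its EBF1 arrays were alike and above the rest, a rise of 0.38 (SE 0.07, adjusted p = 0.036). Slc7a1, the gene for the cationic amino acid transporter CAT1, read 8.34 and 8.32 in Control, 8.75 and 8.68 in EBF1 and 8.06 and 8.17 in Pax5 cells. It rose by 0.38 (SE 0.08, adjusted p = 0.0496), close to the threshold, and its Pax5 arrays were the lowest. The remaining transporter gene, Slc7a11, which encodes the cystine and glutamate exchanger xCT, had a difference of 0.36 (SE 0.09, adjusted p = 0.084) and was not called. Its arrays read 5.09 and 4.92 in Control, 5.40 and 5.32 in EBF1 and 4.74 and 4.66 in Pax5 cells, with no overlap between any pair of groups.

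Among the regulators, Atf5 rose. Atf5, a bZIP factor translated in stress by the same upstream reading frame mechanism as ATF4, read 7.07 and 7.03 in Control, 7.78 and 7.66 in EBF1 and 6.78 and 7.09 in Pax5 cells. Its EBF1 arrays stood above the other 4, the Pax5 arrays lay on both sides of Control, and the rise was 0.67 (SE 0.12, adjusted p = 0.029). Trib3, a pseudokinase gene that ATF4 and CHOP induce, had as large a difference, 0.69 (SE 0.16, adjusted p = 0.063), but was not called. It read 5.45 and 5.48 in Control, 6.17 and 6.15 in EBF1 and 5.64 and 5.16 in Pax5 cells, so that its EBF1 arrays were alike and above all others while its Pax5 arrays lay on both sides of Control.

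Atf4 itself, whose protein level is set mainly by translation, read 8.69 and 8.66 in Control, 8.86 and 8.84 in EBF1 and 8.67 and 8.60 in Pax5 cells. The EBF1 arrays were the highest, but the difference of 0.18 (SE 0.07, adjusted p = 0.25) was not called. The other regulators were not called either: the difference was 0.26 (SE 0.13, adjusted p = 0.34) for Chac1, an enzyme that degrades glutathione, 0.17 (SE 0.10, adjusted p = 0.44) for Atf3, a bZIP factor, and 0.10 (SE 0.08, adjusted p = 0.56) for Ddit3, which encodes CHOP. Atf3 was dim, at 3.5 to 3.89 over the arrays, and the Ddit3 probe set is also annotated to the overlapping gene Mars.

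The serine and one-carbon enzymes of the list did not pass with EBF1. Shmt2, the mitochondrial enzyme that takes serine to glycine, differed by 0.28 (SE 0.08, adjusted p = 0.1), and Mthfd2, the next mitochondrial step in folate metabolism, by 0.26 (SE 0.09, adjusted p = 0.18). Phgdh, the first enzyme of serine synthesis, differed by 0.15 (SE 0.08, adjusted p = 0.38) and Psat1, the second, by 0.09 (SE 0.07, adjusted p = 0.62). For all 4 genes both EBF1 arrays lay above both Control arrays. None of the 5 tRNA synthetase genes passed, with differences of 0.11 (Sars) to 0.36 (Wars) and adjusted p of 0.11 to 0.53.

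Of the unfolded protein response members, limma called 0 of 13 with EBF1, and 2 of them, Creld2 and Herpud1, had an unadjusted p under 0.05. Creld2, an ER protein with disulfide isomerase activity, read 7.75 and 7.86 in Control, 8.26 and 8.20 in EBF1 and 7.47 and 7.65 in Pax5 cells, a difference of 0.43 (SE 0.09, adjusted p = 0.059). Herpud1, an organizer of ER-associated degradation whose promoter also holds a CARE, differed by 0.29 (SE 0.08, adjusted p = 0.095). The ER chaperones Hspa5 (0.08), Hsp90b1 (-0.05), Calr (0.06) and Canx (-0.06) differed from Control by less than 0.1, and the 95% interval for Hspa5 ran from -0.12 to 0.28.

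The lists of other pathway genes, here and below, were chosen like the members with earlier results of these data known. They are no independent support for the member counts. Of the other amino acid response genes, 7 of 23 tested were called higher and 0 lower with EBF1 (12 and 0 at an unadjusted p under 0.05). The shares called over all genes tested were 3.1% higher and 2.53% lower, and at the unadjusted threshold 1799 and 1450 of 16252 genes. Cth, the enzyme that makes cysteine from cystathionine, rose by 0.89 (SE 0.10, adjusted p = 0.0066). Pck2, the mitochondrial phosphoenolpyruvate carboxykinase, rose by 0.77 (SE 0.08, adjusted p = 0.0064) and Pycr1, a proline synthesis enzyme, by 0.72 (SE 0.10, adjusted p = 0.017). Cebpb, the gene for a C/EBP partner of ATF4, rose by 0.61 (SE 0.07, adjusted p = 0.0094), Ddit4, an inhibitor of the growth kinase mTORC1, by 0.60 (SE 0.10, adjusted p = 0.023) and Eif4ebp1, an inhibitor of cap-dependent translation, by 0.49 (SE 0.08, adjusted p = 0.028). The 15 further cytoplasmic tRNA synthetase genes gave 0 calls in limma (2 higher and 0 lower at an unadjusted p under 0.05). Of the genes for eIF2alpha kinases, phosphatases and their regulators, 0 of 10 were called in EBF1 cells (2 higher and 2 lower at an unadjusted p under 0.05).

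The precision is that of 2 arrays per group. In limma fits that left out 1 Control or 1 EBF1 array, where the lone array is assumed to vary like the other groups, 0 members were called, with 9 to 12 at an unadjusted p under 0.05, while the differences of the 5 called members ranged only from 0.35 to 0.73. In the authors' deposited table the smallest step-up adjusted p of a member for EBF1 against Control was 0.0567 (Slc3a2), and 6 of its 28350 probe sets (0.0212%) lay under 0.05.

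The Pax5 vector was then set against the same Control arrays, and here genes of the ER branch fell. Among 33 tested members 6 were called lower and 0 higher, all 6 in the unfolded protein response. Over all genes tested, 4.29% were called, 2.15% lower and 2.14% higher. Both Pax5 arrays lay below both Control arrays for 21 members and above for 2, against 31.2% and 20.1% of all genes tested. At an unadjusted p under 0.05, 17 members were lower and 0 higher. Of the 16252 genes tested, 2055 were lower and 1321 higher at this threshold. Later list counts at this threshold with Pax5 are to be set beside these. The median difference was -0.41 over the 13 unfolded protein response members, -0.09 over the 20 in the amino acid response and -0.04 over all genes tested.

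Xbp1, the transcription factor gene of the IRE1 branch and one that Pax5 is known to repress in B cells, read 7.37 and 7.39 in Control, 7.33 and 7.26 in EBF1 and 6.84 and 6.86 in Pax5 cells. The 2 Pax5 arrays nearly coincided below the other 4, a fall of 0.53 (SE 0.07, adjusted p = 0.017). Hspa5 encodes BiP, the main ER chaperone and the protein that holds the ER sensors inactive. It read 10.27 and 10.25 in Control, 10.29 and 10.38 in EBF1 and 9.79 and 9.66 in Pax5 cells. Pax5 arrays were the lowest and EBF1 arrays lay just above Control, and Hspa5 fell by 0.54 (SE 0.08, adjusted p = 0.024) with Pax5.

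Sdf2l1, an ER protein found in complexes with BiP, read 8.69 and 8.66 in Control, 8.90 and 8.80 in EBF1 and 8.15 and 8.21 in Pax5 cells. It fell by 0.49 (SE 0.08, adjusted p = 0.025), with Pax5 arrays below all others. Hsp90b1, which encodes the ER chaperone GRP94, read 10.67 and 10.60 in Control, 10.56 and 10.62 in EBF1 and 10.28 and 10.19 in Pax5 cells and fell by 0.40 (SE 0.08, adjusted p = 0.0489), just past the threshold. Both of its EBF1 arrays lay below the brighter Control array.

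The disulfide isomerase genes Pdia4 and Pdia6, whose products form and rearrange disulfide bonds in the ER, fell as well. Pdia4 read 8.89 and 8.94 in Control, 8.82 and 8.80 in EBF1 and 8.41 and 8.47 in Pax5 cells, a fall of 0.48 (SE 0.07, adjusted p = 0.024). Pdia6 read 9.49 and 9.51 in Control, 9.56 and 9.58 in EBF1 and 9.07 and 9.10 in Pax5 cells, a fall of 0.41 (SE 0.07, adjusted p = 0.034). In both genes the Pax5 arrays lay below every other array, and the Pdia4 probe set is also annotated to Mir704, a microRNA gene.

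**Figure D3:**
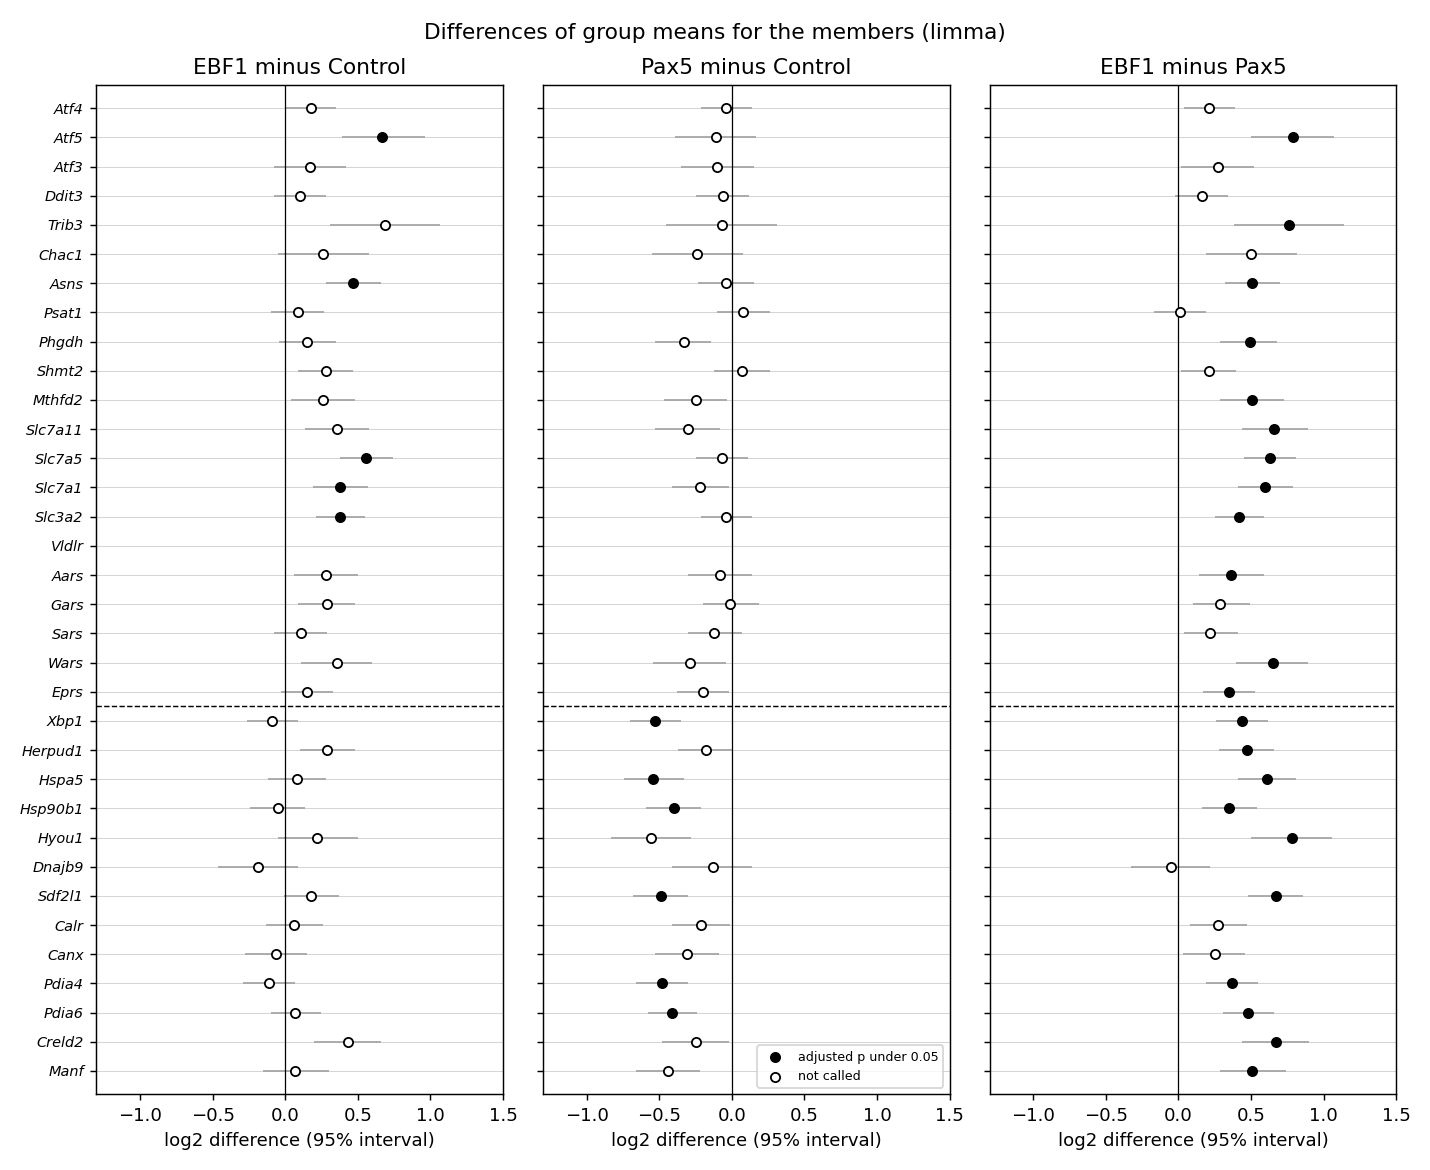
Differences of group means for each member in the 3 comparisons (log2 scale, 95% intervals from limma); filled points passed an adjusted p of 0.05, and Vldlr was not tested. The EBF1 panel has 5 filled points above the dashed line, the Pax5 panel 6 below it, and the direct comparison 22 on both sides of it.

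Hyou1, an ER chaperone gene of the HSP110 family that assists BiP, had the most negative difference with Pax5, -0.56 (SE 0.11, adjusted p = 0.057), and was not called. It read 7.74 and 7.74 in Control, 7.95 and 7.98 in EBF1 and 7.34 and 7.03 in Pax5 cells, with both Pax5 arrays below and both EBF1 arrays above Control. Manf, a secreted ER stress protein, differed by -0.44 (SE 0.09, adjusted p = 0.059) and Canx, the lectin chaperone calnexin, by -0.31 (SE 0.09, adjusted p = 0.13). Calr, the soluble lectin chaperone calreticulin, differed by -0.21 (SE 0.08, adjusted p = 0.22), and for all 4 of these genes both Pax5 arrays lay below both Control arrays. Dnajb9, a BiP cochaperone that XBP1 is known to induce, differed by -0.13 (SE 0.11, adjusted p = 0.54), at 6.81 and 6.94 in Control, 6.61 and 6.76 in EBF1 and 6.62 and 6.86 in Pax5 cells. It was the one unfolded protein response member whose Pax5 and Control arrays overlapped.

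The amino acid response members gave 0 calls of 20 with Pax5, and 6 were lower and 0 higher at an unadjusted p under 0.05. Asns (-0.04, SE 0.08, adjusted p = 0.79), Slc3a2 (-0.04, SE 0.07, adjusted p = 0.8) and Slc7a5 (-0.07, SE 0.07, adjusted p = 0.64) lay near Control. The 95% interval for Asns ran from -0.23 to 0.15. The most negative differences were -0.33 (SE 0.08, adjusted p = 0.085) for Phgdh, -0.30 (SE 0.09, adjusted p = 0.14) for Slc7a11 and -0.29 (SE 0.10, adjusted p = 0.19) for Wars, the tryptophanyl-tRNA synthetase gene.

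Phgdh has 2 probe sets, and the brighter one used here is annotated to chromosome 7 with 19 of its 24 probes matching the transcript, whereas the gene lies on chromosome 3. The probe set on chromosome 3, with 8 of 8 probes matching, read 7.47 and 7.91 in Control, 7.73 and 7.99 in EBF1 and 7.46 and 6.81 in Pax5 cells, a difference of -0.55 between Pax5 and Control cells (adjusted p = 0.27) against -0.33 for the one used. Both ran in the same direction in each comparison.

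In the list of other amino acid response genes, 2 of 23 fell and 1 rose with Pax5 (6 lower and 4 higher at an unadjusted p under 0.05). Over all genes tested, 2.15% were called lower and 2.14% higher. Psph, the last enzyme of serine synthesis, changed by -0.63 (SE 0.08, adjusted p = 0.015) and Nupr1, a stress-induced chromatin protein gene, by -0.46 (SE 0.07, adjusted p = 0.026). The rise was in Slc1a5, the gene for the glutamine transporter ASCT2, by 0.77 (SE 0.07, adjusted p = 0.0056). Its arrays read 8.55 and 8.63 in Control, 8.73 and 8.73 in EBF1 and 9.37 and 9.34 in Pax5 cells, with both Pax5 arrays above the other 4.

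Of 19 other ER chaperones and folding enzymes 1 fell and 0 rose with Pax5, and the faller, Pdia5, an ER disulfide isomerase gene, was also the only one of the list that rose with EBF1. It read 6.53 and 6.5 in Control, 7.54 and 7.56 in EBF1 and 6.07 and 5.75 in Pax5 cells, with no overlap between the groups. The changes were 1.03 (SE 0.12, adjusted p = 0.0075) with EBF1 and -0.61 (SE 0.12, adjusted p = 0.0451) with Pax5. The list's median with Pax5 was -0.23, and 17 of its 19 differences were negative. Over all 16252 genes tested, that median was -0.04 and 9440 differences were negative. The shares called over all genes were 2.15% lower and 2.14% higher with Pax5, and 2.53% and 3.1% with EBF1.

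Of 18 sensors and degradation genes tested, 15 were not called with EBF1 and 16 were not called with Pax5. The shares called over all genes tested were 5.62% with EBF1 and 4.29% with Pax5. Ern1, the gene for the IRE1 sensor that splices Xbp1, fell with both vectors, by 0.53 (SE 0.07, adjusted p = 0.014) with EBF1 and by 0.50 (SE 0.07, adjusted p = 0.018) with Pax5, which share the Control arrays. It read 7.95 and 8.0 in Control, 7.44 and 7.45 in EBF1 and 7.47 and 7.48 in Pax5 cells. Atf6, the gene for another membrane-bound sensor, changed by -0.35 (SE 0.07, adjusted p = 0.0498) with EBF1. Syvn1, the ubiquitin ligase of ER-associated degradation, rose with EBF1 by 0.67 (SE 0.08, adjusted p = 0.0081). Wfs1, an ER membrane protein gene, rose with Pax5 by 1.01 (SE 0.11, adjusted p = 0.0085). Of 16 translocation and export genes 1, the signal peptidase gene Spcs1 (0.57, SE 0.08, adjusted p = 0.018), rose with EBF1, and 0 were called with Pax5 (0 higher and 4 lower at an unadjusted p under 0.05).

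The 6 calls with Pax5 changed with the arrays used. Fitted to the 4 arrays compared, limma called 0 members (12 at an unadjusted p under 0.05). Without Control 1, Control 2, EBF1 1 or EBF1 2 it likewise called 0 (9 to 13 at an unadjusted p under 0.05), without Pax5 1 it called 10 and without Pax5 2 it called 3, all lower. The differences of the 6 ranged from -0.6 to -0.35 over all of these settings. In the authors' deposited table the smallest step-up adjusted p of a member for Pax5 against Control was 0.0653 (Pdia6), and 20 probe sets (0.0705%) lay under 0.05.

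EBF1 and Pax5 cells were compared directly, which uses no Control level. Of the 33 tested members 22 were called higher in EBF1 than in Pax5 cells, 0 lower and 11 neither, where over all genes tested 13.9% were called, 8.69% higher and 5.2% lower. At an unadjusted p under 0.05, 30 members were higher and 0 lower, against 3052 and 1799 of the 16252 genes tested. The calls were 12 of 20 in the amino acid response and 10 of 13 in the unfolded protein response. The median difference was 0.45 and 0.47 in these groups and 0.04 over all genes tested. Before any test, both EBF1 arrays lay above both Pax5 arrays for 31 of the 33 members and below for 0, against 33.9% and 22.4% of all genes tested. The share of calls over all genes was larger in a fit limited to brighter genes, whose adjustment also spans fewer genes. With the filter at the 50th percentile, 16.8% of 11578 genes were called higher and 9.09% lower, and 25 of 32 members higher and 0 lower.

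**Figure D4:**
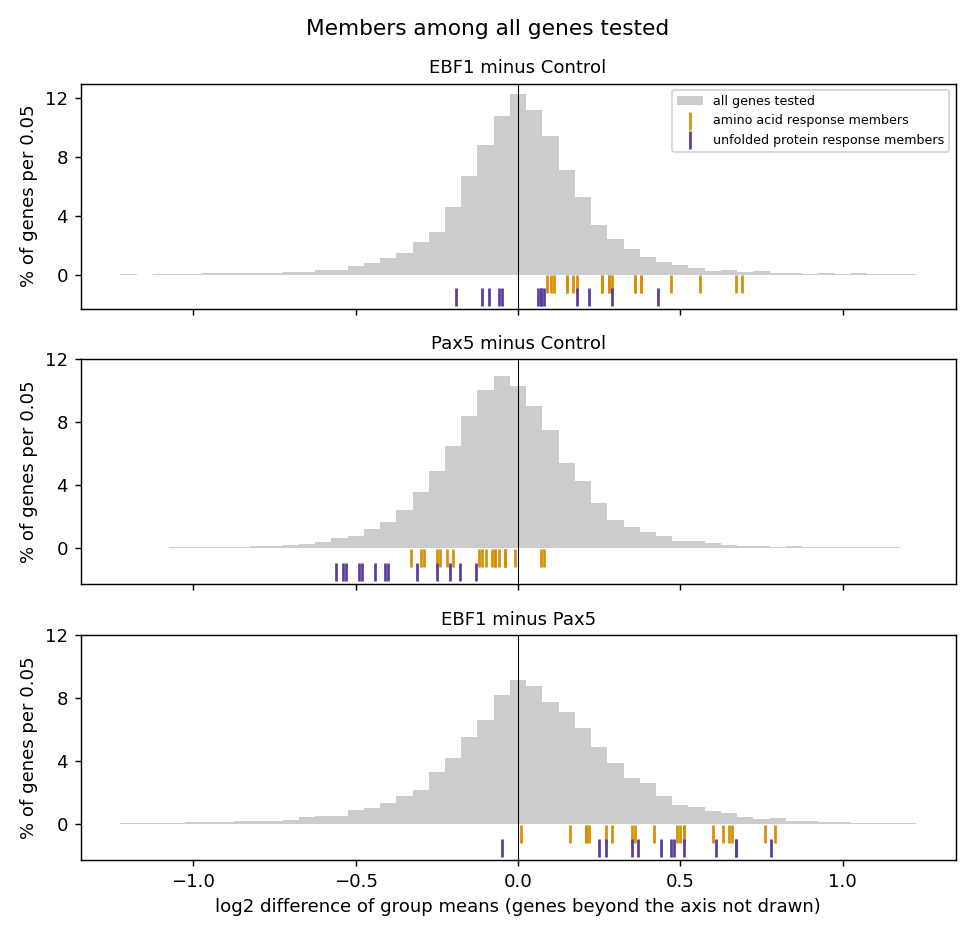
Log2 differences of all 16252 genes tested (grey, percent of genes per bin of 0.05) with the members marked below in each comparison. With EBF1 the amino acid response marks lie right of 0, and with Pax5 the unfolded protein response marks lie left of it. In the direct comparison 32 of the 33 members lie right of 0, as do 9238 of the 16252 genes tested.

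All 4 tested transporter genes passed. The difference was 0.66 (SE 0.09, adjusted p = 0.0077) for Slc7a11, 0.63 (SE 0.07, adjusted p = 0.0049) for Slc7a5, 0.60 (SE 0.08, adjusted p = 0.0069) for Slc7a1 and 0.42 (SE 0.07, adjusted p = 0.015) for Slc3a2. In all 4 genes both Pax5 arrays lay below both Control arrays, most narrowly in Slc7a5 and Slc3a2.

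Among the synthesis enzymes Asns (0.51, SE 0.08, adjusted p = 0.011), Mthfd2 (0.51, SE 0.09, adjusted p = 0.017) and Phgdh (0.49, SE 0.08, adjusted p = 0.014) passed. With the Phgdh probe set on chromosome 3 the difference was 0.72 and not called (adjusted p = 0.11). Mthfd2 read 7.65 and 7.52 in Control, 7.87 and 7.82 in EBF1 and 7.41 and 7.26 in Pax5 cells, with EBF1 arrays above and Pax5 arrays below Control. Psat1 differed by 0.01 (SE 0.07, adjusted p = 0.95), the smallest difference of the enzymes, with its 6 arrays between 5.92 and 6.05. Shmt2 differed by 0.21 (SE 0.08, adjusted p = 0.13), and its Pax5 arrays lay above Control.

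Of the regulators Atf5 (0.79, SE 0.12, adjusted p = 0.01) and Trib3 (0.76, SE 0.16, adjusted p = 0.028) passed. Chac1 (0.50, SE 0.13, adjusted p = 0.0545), Atf3 (0.27, SE 0.10, adjusted p = 0.14), Atf4 (0.21, SE 0.07, adjusted p = 0.11) and Ddit3 (0.16, SE 0.08, adjusted p = 0.21) did not. The 95% interval for Atf4 ran from 0.04 to 0.39.

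The synthetase genes Wars (0.65, SE 0.10, adjusted p = 0.012), Aars (0.36, SE 0.09, adjusted p = 0.0493) and Eprs (0.35, SE 0.07, adjusted p = 0.029) passed. Wars read 8.13 and 8.18 in Control, 8.59 and 8.44 in EBF1 and 7.97 and 7.77 in Pax5 cells, the largest difference of the 5 synthetases. Gars (0.29, SE 0.08, adjusted p = 0.062) and Sars (0.22, SE 0.08, adjusted p = 0.11) did not pass, and the Aars probe set is also annotated to Exosc6, an exosome subunit gene. Of the 15 synthetase genes outside the members 5 were higher and 0 lower, with a median of 0.28. Over all genes tested, 8.69% were higher and 5.2% lower, with a median of 0.04.

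In the unfolded protein response, Hyou1 had the largest difference, 0.78 (SE 0.11, adjusted p = 0.0097). Sdf2l1 (0.67, SE 0.08, adjusted p = 0.0047), Creld2 (0.67, SE 0.09, adjusted p = 0.0085) and Hspa5 (0.61, SE 0.08, adjusted p = 0.0075) followed, and then Manf (0.51, SE 0.09, adjusted p = 0.018), Pdia6 (0.48, SE 0.07, adjusted p = 0.0098), Herpud1 (0.47, SE 0.08, adjusted p = 0.014) and Xbp1 (0.44, SE 0.07, adjusted p = 0.014). Pdia4 and Hsp90b1 had smaller differences, 0.37 (SE 0.07, adjusted p = 0.024) and 0.35 (SE 0.08, adjusted p = 0.036). The lectin chaperone genes Calr (0.27, SE 0.08, adjusted p = 0.077) and Canx (0.25, SE 0.09, adjusted p = 0.13) did not pass, and Dnajb9 differed by -0.05 (SE 0.11, adjusted p = 0.8).

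Set beside the motifs printed above, 3 of the 6 genes with an ERSE were called lower with Pax5 against Control (Hspa5, Hsp90b1 and Pdia6), and Calr, Canx, Creld2 and, with ERSE-II, Herpud1 were not. The other 3 genes called lower, Xbp1, Sdf2l1 and Pdia4, have no match in their windows, nor has Dnajb9, which was not called. The share called lower with Pax5 over all genes tested was 2.15%. In the same way, 4 of the 6 genes with an ERSE were called in the direct comparison (Hspa5, Hsp90b1, Pdia6 and Creld2) and Calr and Canx were not, and Herpud1, with ERSE-II, was called. Sdf2l1, Pdia4 and Xbp1 were called without a match in their windows, and Dnajb9, also without one, was not. The share called higher in that comparison over all genes tested was 8.69%. Of the 7 amino acid response genes with a CARE, Asns, Trib3 and Slc7a11 were called, Atf3, Chac1 and Gars were not, and Vldlr was not tested. Mthfd2, Phgdh, Slc7a1, Slc3a2, Atf5 and Eprs were called without a CARE in the window, and Atf4, Ddit3, Psat1, Shmt2 and Sars, also without one, were not. Against Control, the EBF1 calls were Asns, with a CARE, Atf5, Slc7a1 and Slc3a2, without one, and Slc7a5, whose window was not used. Calls thus fell on members with and without a motif, and a link between motif and call was not tested.

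**Figure D5:**
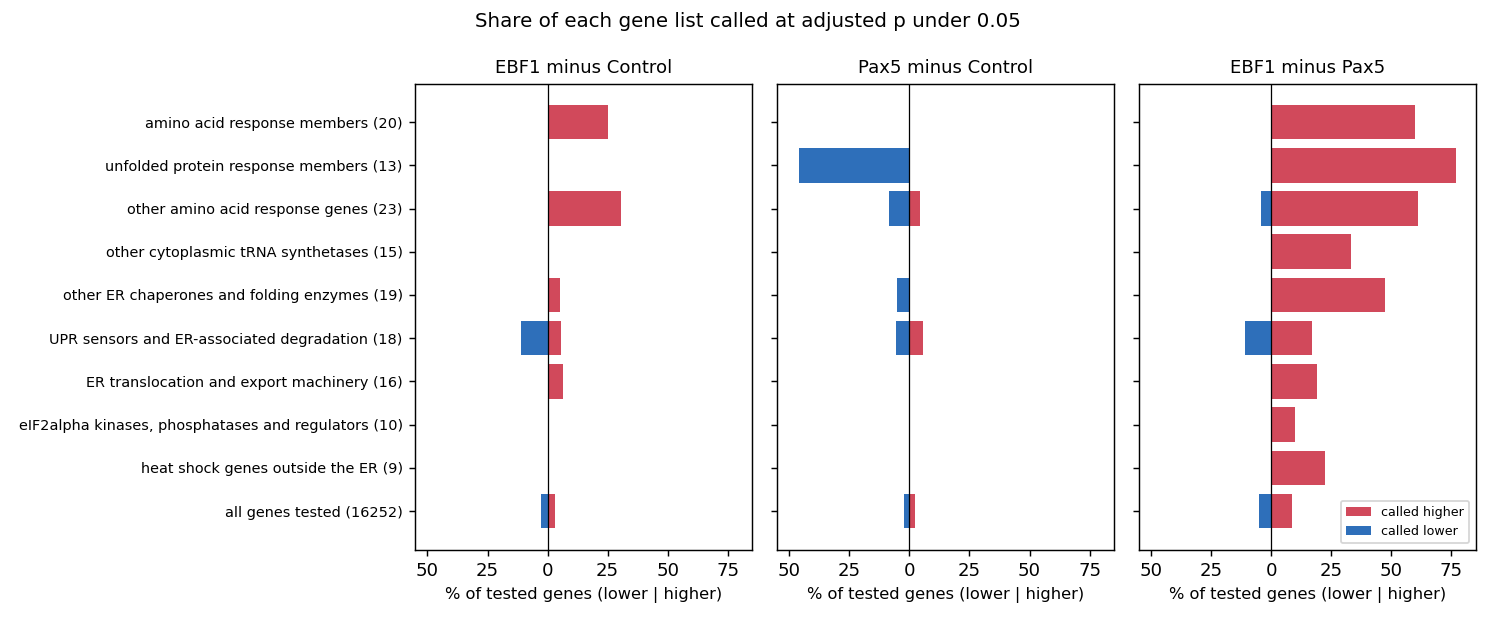
Percent of the tested genes of each list called higher (right) or lower (left) at an adjusted p of 0.05, by comparison, with the number tested in brackets and all genes tested at the bottom. In the direct comparison the shares called higher are 60% and 76.9% for the members of the 2 responses and 8.69% over all genes.

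Of 23 other amino acid response genes 14 were higher and 1 lower, against 8.69% and 5.2% of all genes tested. The lower one was Slc1a5 (-0.62, SE 0.07, adjusted p = 0.0051). The largest were Pck2 (0.89, SE 0.08, adjusted p = 0.0022), Sesn2, a leucine sensor upstream of mTORC1 (0.85, SE 0.15, adjusted p = 0.017), Nupr1 (0.75, SE 0.07, adjusted p = 0.0026), Ddit4 (0.70, SE 0.10, adjusted p = 0.0078), Cebpb (0.66, SE 0.07, adjusted p = 0.0039) and Cth (0.63, SE 0.10, adjusted p = 0.011). Sesn2 read 6.58 and 6.61 in Control, 6.89 and 6.87 in EBF1 and 6.26 and 5.80 in Pax5 cells, with its Pax5 arrays the lowest and furthest apart.

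Among 19 other ER chaperones and folding enzymes 9 were higher and 0 lower, led by Pdia5 (1.64, SE 0.12, adjusted p = 0.00097), a 3.12-fold difference. Sil1, a nucleotide exchange factor for BiP (0.64, SE 0.15, adjusted p = 0.042), and Txndc5, a thioredoxin-domain isomerase gene (0.58, SE 0.12, adjusted p = 0.028), came next. The translocation and export list had 3 of 16 higher and 0 lower, led by Spcs1 (0.63, SE 0.08, adjusted p = 0.0067) and Srpr, the receptor for the signal recognition particle (0.62, SE 0.09, adjusted p = 0.009). Of 18 sensors and degradation genes 3 were higher, Syvn1 (0.59, SE 0.08, adjusted p = 0.0064), Atf6b (0.50, SE 0.09, adjusted p = 0.016) and Edem1 (0.41, SE 0.09, adjusted p = 0.038), and 2 lower, Wfs1 (-0.96, SE 0.11, adjusted p = 0.0049) and Atf6 (-0.48, SE 0.07, adjusted p = 0.011). Ern1 differed by -0.03 (SE 0.07, adjusted p = 0.81), with similar values in both groups. The shares over all genes tested in this comparison were 8.69% higher and 5.2% lower.

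Without EBF1 1 the limma count of members called fell to 0 and without EBF1 2 to 2 (25 and 24 at an unadjusted p under 0.05), and without 1 array of another group it was 16 to 24. For Pax5 against EBF1 the authors' deposited table gives a step-up adjusted p under 0.05 to 5 members, Slc3a2, Pdia6, Slc7a5, Xbp1 and Sdf2l1, and to 449 of 28350 probe sets (1.58%).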

How the data were processed

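Expression was measured on 6 Affymetrix arrays, with 50 ng of total RNA amplified by a NuGEN whole-transcript kit, per the labels' protocols. The authors deposited log2 values made with RMA and Partek 6.5, per the submitters' processing notes; the RMA options, annotation version and build were not given in the sources used here. A second deposited table repeats these log2 values (largest difference 0) and holds the authors' p-values and step-up adjusted p-values. Symbols came from its symbol column (25254 of 28350 probe sets; 3096 without a symbol were left out). Each symbol kept its brightest probe set over the 6 arrays, and 16252 genes above the 30th percentile of an array on at least 2 arrays were tested.

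Groups came from the sample titles. The 3 comparisons came from limma 3.58.1 (R 4.3.3; lmFit and eBayes, 2-sided) in 1 model of the 6 arrays (3 residual and 3.16 prior degrees of freedom), with Benjamini-Hochberg adjustment over all genes tested. The fit was tested on simulated data in which each gene had the same spread in all 3 groups. It was thus not tested under the wider spread of the Pax5 arrays. The members, lists and tests were chosen with earlier results of these data known. All members are named; of the other lists, at most the 6 called genes with the largest differences in a comparison. Alternatives were a replicate block, each array left out, other filters, probe set means, repeated quantile normalization, median centring, trend and robust eBayes, and the 4 arrays compared. Cyclic loess, leaving out probe sets annotated to several genes, and the other Phgdh probe set were added after the data were seen. Promoter sequences are RefSeq's (GRCm38.p6), matched by symbol; 1 member's window is not reported here.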

Additional observations from a re-analysis of the deposited data

How the results depend on the processing

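No member called with all arrays changed direction under any alternative, but many lost their call. Leaving out 1 array at a time gave 0 to 7 members called for EBF1 against Control (115 to 1509 of all genes), 0 to 10 for Pax5 against Control (67 to 2539) and 0 to 24 for EBF1 against Pax5 (435 to 4114). Of the called members, 0 of 5, 0 of 6 and 0 of 22 kept the call in every such fit, and 1 of 5 (Slc7a5), 0 of 6 and 15 of 22 in every other setting. Deviations of same-numbered arrays correlated at 0.013 (Control and EBF1), 0.008 (Control and Pax5) and -0.01 (EBF1 and Pax5). The labels do not say what the replicate numbers stand for, and these values cannot exclude samples paired by design. With a replicate block, 1 member and 604 genes were called for EBF1 against Control, 1 member and 456 genes for Pax5 against Control, and 19 members for EBF1 against Pax5. With trend and robust eBayes the members called were 12, 14 and 29 and the genes 1865, 1721 and 3549. With the filter at the 50th percentile, which tests fewer genes, 9 members and 1385 genes passed for EBF1 and 9 and 1056 for Pax5 against Control. For EBF1 against Pax5 this filter gave 25 members and 2998 genes, 16.8% of genes higher and 9.09% lower. Without a filter, and with arrays centred on their median, 3 members passed for EBF1 against Control. From only the 4 arrays compared, 7 members and 1509 genes passed for EBF1 against Control, and 0 members and 259 genes for Pax5 against Control. For EBF1 against Pax5 these arrays gave 16 members, in place of 22, and 1166 genes. Centring moved the split of calls between EBF1 and Pax5 from 8.69% higher and 5.2% lower to 6.12% and 7%, repeated quantile normalization to 6.89% and 6.17%, and cyclic loess to 6.77% and 6.56%, while the members' median fell from 0.47 to 0.40, 0.38 and 0.41 and the members called from 22 to 18, 19 and 21. For Pax5 against Control these gave 2.41% and 1.7%, 2.35% and 1.72%, and 2.54% and 1.62%, with the members' median at -0.17, -0.14 and -0.16 in place of -0.21, members called at 5, 4 and 4 in place of 6, and members with a positive difference at 6, 6 and 7 in place of 2. Differences near 0 changed sign without a call. For Pax5 against Control, Gars became 0.03 without Control 2, 0.05 without Pax5 1, 0.05 with quantile normalization or loess and 0.04 centred. With an array left out, Atf5 ranged from -0.26 to 0.04, highest without Pax5 1, and Atf3 from -0.21 to 0.01 and Trib3 from -0.31 to 0.18, highest without Pax5 2. Slc3a2 became 0.01 (quantile or centred) or 0.02 (loess), Atf4 0.01 (centred) or 0.02 (loess) and Asns 0.01 (loess). For EBF1 against Pax5, Dnajb9 ranged from -0.18 to 0.07 with an array left out (0.02 without EBF1 1, 0.07 without Pax5 2), and Psat1 -0.04 without Pax5 2 or with quantile normalization, -0.07 centred and -0.06 with loess. The cause was not tested.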

Other observations

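Of the secretory and plasma cell factors, 7 of 9 were tested. Bhlha15, the gene for MIST1, a factor that expands secretory capacity, was higher with EBF1 by 3.24 (SE 0.11, adjusted p = 0.00027). It read 4.39 and 4.22 in Control, 7.51 and 7.59 in EBF1 and 4.36 and 4.59 in Pax5 cells, with both EBF1 arrays far above the other 4. Irf4, a factor of B cell and plasma cell development, was higher with Pax5 by 3.22 (SE 0.13, adjusted p = 0.00027), at 3.49 and 3.53 in Control, 4.17 and 3.79 in EBF1 and 6.71 and 6.75 in Pax5 cells. Sdc1, the gene for the plasma cell surface protein CD138, was lower with Pax5 by 0.75 (SE 0.09, adjusted p = 0.01). Creb3l1, a membrane-bound bZIP factor of the secretory pathway, differed between EBF1 and Pax5 cells by 0.65 (SE 0.16, adjusted p = 0.045).

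Of 9 tested heat shock genes outside the ER, the mitochondrial chaperonin genes Hspd1 and Hspe1 among them, limma called 0 with either vector against Control (1 higher and 0 lower with EBF1, and 0 higher and 2 lower with Pax5, at an unadjusted p under 0.05). In the direct comparison 2 were higher in EBF1 cells, Hsph1 (0.52, SE 0.09, adjusted p = 0.015) and Hspd1, which encodes HSP60 (0.37, SE 0.09, adjusted p = 0.041). Among the eIF2alpha kinases, phosphatases and regulators, Gcn1l1, an activator of the kinase GCN2, was the 1 of 10 called there (0.31, SE 0.07, adjusted p = 0.041). That is near the share over all genes tested, of which 13.9% were called in this comparison, 8.69% higher and 5.2% lower. Against Control, the unadjusted counts over all 16252 genes were 1799 higher and 1450 lower with EBF1. With Pax5 they were 1321 higher and 2055 lower.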
